A study of Bos taurus with 48 samples.

Results

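The 10 genes described here are B2M, PSMB8, PSMB9, PSMB10, TAP1, TAPBP, CD74, BOLA-DRA, BOLA-DMA and IRF1. Apart from the transcription factor IRF1, their products help to make the peptides that cells show to T cells, load them and carry them to the surface. The 10 genes were found by name among the 21475 probes, for 20590 genes, of a bovine oligonucleotide array: 6 by the gene name in the files and 4 (PSMB9, TAP1, TAPBP and CD74) by the symbol in the probe description. Each of the 10 genes had 1 probe, spotted 2 times, and all of them were among the 15150 genes that passed the filter on dim probes. RNA came from biopsies of the longissimus muscle of the back of 35 cattle, measured on 48 2-colour arrays. In the developmental experiment, animals labelled Piedmontese and Wagyu, which the study's methods describe as crosses with Hereford, were compared at 60, 135 and 195 days of gestation, at birth (280 days), and at 3, 7, 12, 20, 25 and 30 months of age. In the diet experiment, Belmont Red cattle on a weight loss diet were compared with cattle on a weight growth diet at times 0, 1 and 2, which the labels do not convert to weeks. The study's methods describe these as adult time points of an experiment with nutritional deprivation and re-alimentation. Neither the methods nor the labels say which time belongs to which phase. Counting each animal once, 6 fetuses and 3 newborns per cross were measured, then 5 Piedmontese and 4 Wagyu crosses followed over the months after birth, and 4 animals on each diet. The 60 day time point held only 1 animal of each cross, each measured on 3 arrays, and diet time 2 held 2 animals per diet. The 7 tested markers of muscle fibres were well above background in all channels of the developmental experiment, but 1 sample stood apart. In the Piedmontese fetus GP672 of 135 days their mean log2 intensity was 10.43, against 14.51 to 15.50 in the other 4 fetuses of that age, and the mean of 4 adipocyte markers was 13.57 against 8.36 to 9.60. The counts of called genes at the steps to and from 135 days, and the values of some genes, are therefore also given without it. In the diet experiment, the 3 animals on weight loss had muscle fibre means of 15.41 to 15.68 at time 1, against 16.90 to 17.81 in the growth group, and ACTA1, the skeletal actin, at 11.47 to 11.99 against 17.46 to 18.28.

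Cells break down their proteins in the proteasome. Interferon makes cells swap the standard catalytic subunits PSMB5, PSMB6 and PSMB7 for PSMB8, PSMB9 and PSMB10, which gives the immunoproteasome. TAP1 is part of the pump that moves the peptides into the endoplasmic reticulum, TAPBP (tapasin) holds the pump to the class I molecule while it is loaded, and B2M is the light chain of class I. Class II molecules are made chiefly by macrophages, dendritic cells and B cells: BOLA-DRA is the alpha chain of the main bovine class II molecule, CD74 is the invariant chain that guards its groove, and BOLA-DMA belongs to the molecule that exchanges the last piece of CD74 for a peptide. IRF1 is a transcription factor that interferon gamma induces. Resting muscle fibres are known for low class I and hardly any class II, so that whole muscle RNA also reports on the immune and vessel cells between the fibres.

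The probes are 60 bases long, and their positions in the transcripts were not mapped. The final 30 bases of the 4 probes whose genes carry the class II results and the class I light chain are printed first, to show which sequence each signal stands for.
CD74: agaacggcatagattagtggtacgcttgct
BOLA-DRA: tctatgggtgcatctcttgtacacttatta
BOLA-DMA: gtcctcttctactgccgaaagccgtgctta
B2M: atagcatagaaagtcatcatgaatgtgatg
In 3 of the 10 probes the letters AATAAA, in which polyadenylation signals are usually written, occurred on the probe strand, against 11.8% of all probes. They are in capitals, with the bases around them.
PSMB9: tctttattttgtAATAAActttctggaa
PSMB10: ggaacaaggaggAATAAAcccagaaaacac
TAP1: cttgatatttatAATAAAattggtgttttg
In the RefSeq gene order PSMB8, TAP1 and PSMB9 are direct neighbours with 0 protein-coding genes between them, 2 such genes separate PSMB9 from BOLA-DMA, 13 separate BOLA-DMA from TAPBP and 235 separate TAPBP from BOLA-DRA. IRF1 and CD74 are 466 genes apart in the same order.

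Levels are given as log2 of the background-corrected and normalised intensity, 1 value per animal and time point. They are compared between samples for the same gene, not between genes. A gene is said to have risen or fallen where the adjusted p from limma (Benjamini-Hochberg over all 15150 genes) was below 0.05, and ± stands for the standard error of a log2 difference or, for a level, for the SD over animals. Of the 96 channels, B2M, PSMB9, PSMB10, TAPBP, BOLA-DRA, BOLA-DMA and IRF1 were well above background in all 96, PSMB8 in 95, CD74 in 94 and TAP1 in 90. All the missing channels were at 60 days, where TAP1 was not well above background in any of 6. The 60, 135 and 195 day and birth arrays shared 3 slides. The 3, 7, 12 and 20 month arrays shared 4 others, and the 25 and 30 month arrays shared 2. The steps from birth to 3 months and from 20 to 25 months therefore cross slides, and there slide and age cannot be told apart. Spots well above background made up 49.9 to 72.8% per array in Cy3 and 55.1 to 76.4% in Cy5.

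All 10 genes had their lowest mean level at 60 days of gestation, and 9 of the 10 rose between birth and 3 months. From 60 to 135 days 6 of 10 genes rose and 0 fell, with a median difference of 0.95, where 8.17% of all genes rose and 8.32% fell. Without GP672 5 rose, all but PSMB8, and with slide as a fixed term 8 rose. With slide as a random block 9 rose, but that fit had no animal block and counted an animal once for each of its slides. It called 5876 of all genes, against 2497. From 135 to 195 days 4 rose and 0 fell (median 0.53; 12.3% of all genes rose and 13.5% fell). Without GP672 6 rose, with PSMB8 and PSMB9 added. With slide as a fixed term 7 rose, and 8 with the same random block, which again counted an animal once per slide. When arrays were scaled by their median alone (called median scaling from here on), 0 of the 10 were called at either of these steps, so that no rise at these steps given in the following paragraphs held there. Median scaling called far fewer of all genes there too: 715 against 2497 at the first step, and 699 against 3915 at the second. From 195 days to birth the class II genes CD74 and BOLA-DRA fell and 0 of the 10 rose (median -0.20; 31.1% of all genes fell and 35.6% rose). From birth to 3 months 9 rose and 0 fell (median 1.25; 25.9% of all genes rose and 23.8% fell), and 5 of these calls, PSMB8, PSMB9, TAP1, CD74 and BOLA-DRA, held under median scaling. That scaling called 2474 of all genes at this step, against 7534. Over whole stages, birth was above the prenatal mean for B2M, TAP1 and TAPBP and below it for 0 genes (40.5% of all genes higher, 33.6% lower; BOLA-DRA was also called under median scaling, at -0.91), and the post-natal mean was above birth for 9 and below for 0 (23.4% higher, 25.7% lower). Against the prenatal stage it was also above for 9 and below for 0, where 39% of all genes were higher and 35.5% lower. Between birth and the prenatal stage, BOLA-DRA was also called without GP663, GP672, GW175 or GW911, and IRF1 without GW067. The B2M call there was lost without GW175. Between the post-natal stage and birth, the IRF1 call was lost without GP193, GW071 or GW146. The animals of 2 neighbouring time points did not overlap for 8 of the 10 genes from 60 to 135 days (29.9% of all genes) and for 3 from 135 to 195 days (18.1%). From 195 days to birth this held for 3 (47.5%), and from birth to 3 months for 6 (15.7%). The median over all genes was between -0.02 and 0.06 at every step from one time point to the next. In whole muscle, fewer cells of a type and less RNA per cell cannot be told apart.

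**Figure D1:**
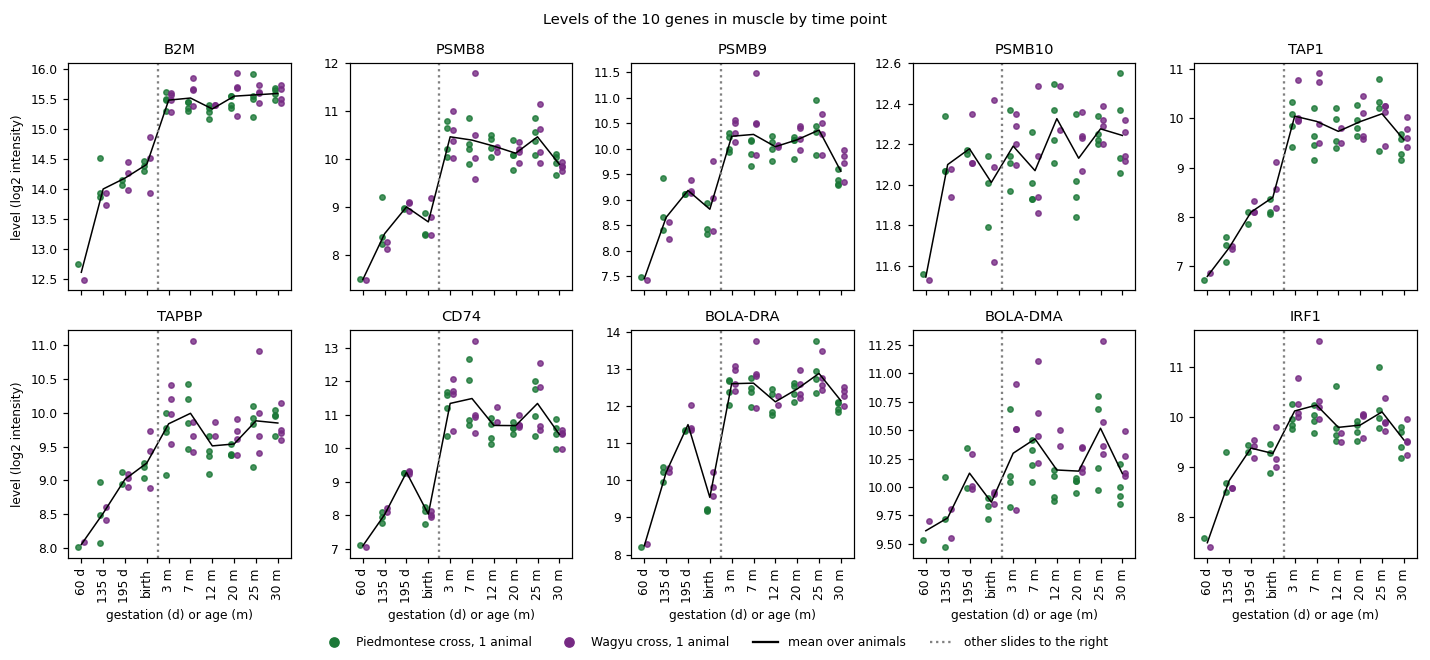
Log2 intensity of each gene at 60, 135 and 195 days of gestation, birth and 3 to 30 months. Each point is 1 animal, green for Piedmontese and purple for Wagyu crosses, the line joins the means over animals, and the dotted line marks where the slides change. BOLA-DRA and CD74 were highest before birth at 195 days, fell at birth and were above all newborns in every animal at 3 months.

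Among the immunoproteasome subunits, PSMB8 and PSMB9 followed the same course and PSMB10 a much flatter one. PSMB8 was at 7.48 and 7.50 in the 2 fetuses of 60 days, between 8.13 and 9.22 (median 8.28) in the 5 of 135 days, between 8.91 and 9.10 in the 5 of 195 days and between 8.42 and 9.19 (median 8.62) in the 6 newborns. In the 8 calves of 3 months it was between 10.03 and 11.01 (median 10.50), above every newborn. PSMB8 rose by 0.96 ± 0.31 from 60 to 135 days (adjusted p = 0.022) and by 1.79 ± 0.20 from birth to 3 months (adjusted p = 5.93e-11, 3.46-fold). The first of these calls did not hold without GP663 or GW911, the only 60 day animals, or without GP672, which had the highest PSMB8 of its age (0.76, adjusted p = 0.0695). From 135 to 195 days PSMB8 differed by 0.56, which did not pass, and without GP672 by 0.75 (adjusted p = 0.0142).

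PSMB9 was at 7.42 and 7.48 at 60 days and between 8.22 and 9.42 at 135 days. It reached 9.11 to 9.38 at 195 days, was spread from 8.33 to 9.76 at birth, and lay between 9.93 and 10.57 at 3 months, again with no overlap between newborns and 3 month calves. It rose by 1.21 ± 0.29 from 60 to 135 days (adjusted p = 0.00145) and by 1.43 ± 0.19 from birth to 3 months (adjusted p = 5.53e-09). Without GW911 the first difference no longer passed, and without GP672 it was 1.01 (adjusted p = 0.0063). The step from 135 to 195 days was 0.50, not called, and 0.70 without GP672 (adjusted p = 0.0136).

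PSMB10 moved from 11.53 and 11.56 at 60 days to between 11.94 and 12.34 at 135 days, a rise of 0.56 ± 0.14 (adjusted p = 0.00371) that was not called without GP663 or GW911. After that its time point means stayed between 12.01 and 12.33. Its difference from birth to 3 months was 0.17, which did not pass, and newborns (11.62 to 12.42) enclosed the 3 month calves (11.97 to 12.37). From 7 to 12 months PSMB10 rose by 0.27 ± 0.08 (adjusted p = 0.0149; 9.54% of all genes rose and 7.65% fell), in all 5 animals measured at both ages, but this turned into -0.18 under median scaling, and it was not called without GP130 or GW179. PSMB10 thus spanned 0.79 between its lowest and highest time point mean, against 2.98 for PSMB8 and 2.92 for PSMB9.

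The standard subunits that these 3 replace took other courses. PSMB5 fell by 0.32 from 135 to 195 days, a call lost under median scaling (-0.09), and rose by 0.72 ± 0.09 from 195 days to birth (adjusted p = 1.47e-09), where none of the 3 immunoproteasome subunits passed the test. PSMB6 rose by 0.63 ± 0.08 from birth to 3 months (adjusted p = 2.55e-09), 1.55-fold against 3.46-fold for PSMB8. PSMB7 had the smallest span of all 13 genes, 0.37, and moved by -0.32 from 195 days to birth, which median scaling turned into 0.46. From birth to 3 months all 3 standard subunits were called higher (PSMB5 by 0.32 and PSMB7 by 0.27), but under median scaling none was, with -0.15 for PSMB5, 0.21 for PSMB6 and -0.20 for PSMB7. PSMB8 and PSMB9 rose at that step under both scalings, by 1.58 and 1.25 under median scaling.

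TAP1, the pump subunit, had its lowest values at 60 days, where its measured values of 6.72 and 6.87 were not well above background. Ratios to that time point are therefore lower bounds of the ratio of means: 1.49-fold at 135 days, 2.47-fold at 195 days and 9.5-fold at 3 months. The floor used for them had a mean of 6.8, equal to the measured mean, and the bounds carry no test. From 60 to 135 days TAP1 was not called. It was between 7.09 and 7.60 at 135 days and between 7.86 and 8.33 at 195 days, groups that do not overlap (as for 18.1% of all genes), a rise of 0.68 ± 0.22 (adjusted p = 0.0142). Newborns were between 8.05 and 9.11. At 3 months TAP1 was between 9.41 and 10.77, above all newborns, with a difference of 1.63 ± 0.18 (adjusted p = 8.54e-11, 3.1-fold).

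TAPBP and B2M, the loading chaperone and the class I light chain, also ended higher than they began. TAPBP rose from means of 8.05 ± 0.06 at 60 days and 9.26 ± 0.30 at birth to 9.84 ± 0.41 at 3 months. Its only step past the test was birth to 3 months, by 0.60 ± 0.19 (adjusted p = 0.00871; 0.41 under median scaling, adjusted p = 0.379), with newborns from 8.88 to 9.73 and 3 month calves from 9.08 to 10.41. Over whole stages TAPBP was higher at birth than before it by 0.61 ± 0.18 (adjusted p = 0.00317). B2M was at 12.48 and 12.74 at 60 days and between 13.74 and 14.51 at 135 days, a rise of 1.39 ± 0.17 (adjusted p = 6.7e-09, 2.62-fold). It was at 13.98 to 14.45 at 195 days, 13.94 to 14.86 at birth and 15.29 to 15.62 at 3 months, and the rise from birth to 3 months was 1.07 ± 0.11 (adjusted p = 1.11e-11). Under median scaling the 2 rises were 1.06 (adjusted p = 0.377) and 0.67 (adjusted p = 0.229), neither of them called. After 3 months all its time point means lay between 15.34 and 15.60.

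CD74, the invariant chain, was at 7.05 and 7.13 at 60 days, between 7.78 and 8.21 at 135 days and between 9.24 and 9.32 at 195 days. At birth it was back between 7.74 and 8.26 (values of 8.26, 8.13 and 7.74 in the Piedmontese and 7.95, 8.12 and 8.02 in the Wagyu crosses), which overlaps the 135 day fetuses and lies below every 195 day fetus. CD74 rose by 1.25 ± 0.37 from 135 to 195 days (adjusted p = 0.00792; 1.23 under median scaling, adjusted p = 0.148) and fell by 1.24 ± 0.35 from 195 days to birth (adjusted p = 0.00162, 2.37-fold). At 3 months it was between 10.36 and 12.06 (median 11.60), which was 3.35 ± 0.31 above birth (adjusted p = 3.34e-13, 10.2-fold).

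BOLA-DRA, the class II alpha chain, had the widest span of the 10 genes: its time point means ran from 8.24 at 60 days to 12.88 at 25 months, 24.9-fold. It was at 8.20 and 8.28 at 60 days, between 9.95 and 10.35 at 135 days, and between 11.33 and 12.02 at 195 days, with no overlap between any of these groups (29.9% of all genes had none at the first step and 18.1% at the second). In the newborns it was at 9.23, 9.18 and 9.19 in the Piedmontese and 9.83, 9.58 and 10.23 in the Wagyu crosses, all below the lowest fetus of 195 days. The differences were 2.00 ± 0.30 (adjusted p = 7.22e-07), 1.23 ± 0.23 (adjusted p = 3.2e-05) and then -1.93 ± 0.22 (adjusted p = 2.06e-11, 3.81-fold). Under median scaling the rises were 1.88 (adjusted p = 0.0643) and 1.17 (adjusted p = 0.177), and without GP672 they were 2.04 and 1.19, both called. By 3 months BOLA-DRA was between 12.03 and 13.08, a rise of 3.07 ± 0.19 (adjusted p = 2.01e-19, 8.37-fold). The fall at birth was measured within each of the 3 slides that hold both ages, by -1.98 to -1.89 for BOLA-DRA and by -1.46 to -1.12 for CD74. It held for both genes when any single animal was left out, and under median scaling, by -1.91 for BOLA-DRA and -1.26 for CD74.

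BOLA-DMA, the peptide exchange subunit, was flatter than its class II partners, with a span of 0.91. Its levels were between 9.47 and 10.09 at 135 days, 9.98 and 10.34 at 195 days, and 9.72 and 9.96 at birth. It rose by 0.43 ± 0.15 to between 9.80 and 10.91 at 3 months (adjusted p = 0.0134; 0.25 under median scaling, adjusted p = 0.624), where newborns and 3 month calves overlap.

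IRF1, the interferon-induced factor, rose at 3 of the 4 first steps. It was at 7.39 and 7.57 at 60 days, 8.50 to 9.29 at 135 days, 9.18 to 9.53 at 195 days, 8.88 to 9.80 at birth and 9.76 to 10.77 at 3 months. The rises were 1.24 ± 0.33 (adjusted p = 0.0046), 0.64 ± 0.25 (adjusted p = 0.0496) and, from birth to 3 months, 0.85 ± 0.21 (adjusted p = 0.000735). The rise from 135 to 195 days was close to the threshold and did not hold when any of 9 of the 10 animals was left out, and the earlier one not without GP663 or GW911. The exception was GP672, without which it was 0.79 (adjusted p = 0.0205). It was also lost when GP041A and GP041B, whose labels do not say whether they are 1 animal, were counted as 1 (adjusted p = 0.0809). Under median scaling the rise from birth to 3 months was 0.71 (adjusted p = 0.0857).

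**Figure D2:**
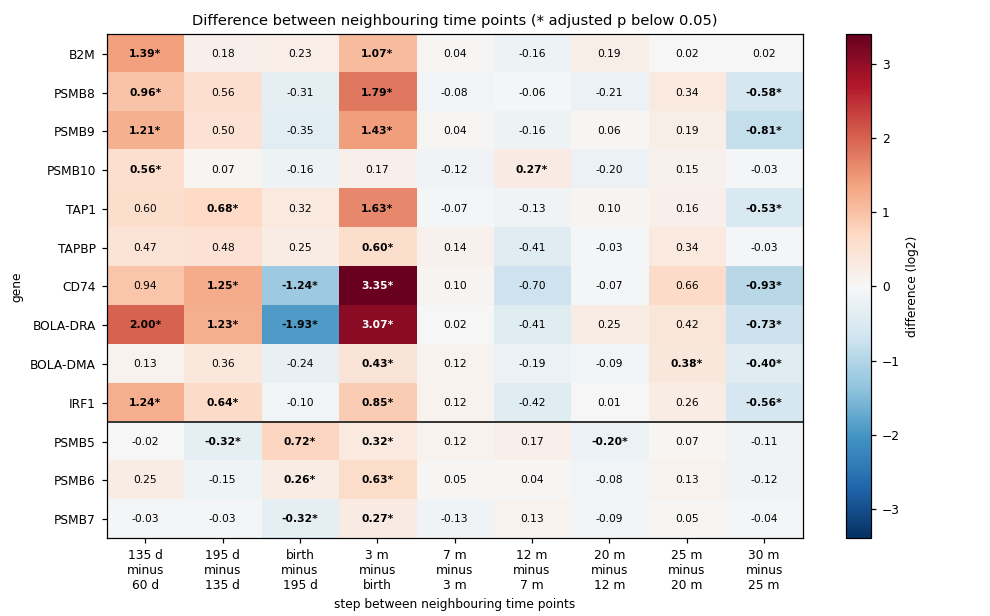
Log2 difference between neighbouring time points for the 10 genes and, below the line, the standard subunits PSMB5, PSMB6 and PSMB7, with an asterisk where the adjusted p was below 0.05. Red is higher at the later time point and blue lower: 9 genes rose from birth to 3 months, and 7 have a negative value with an asterisk from 25 to 30 months, of which none was negative and called under median scaling of the arrays.

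From 3 to 7 months and from 12 to 20 months 0 of the 10 genes passed the test, where 19.6% and 15.2% of all genes did. From 20 to 25 months BOLA-DMA rose by 0.38 ± 0.11 (adjusted p = 0.0202; 6.89% of all genes rose and 6.82% fell), a value that became -0.19 under median scaling and was not called without GP112, GP201 or GW245. From 25 to 30 months 7 genes were lower and 0 higher (11% of all genes were lower and 11.6% higher), in the same 8 animals measured at both ages, but under median scaling 0 of the 10 were lower. PSMB9 had the most certain difference, -0.81 ± 0.14 (adjusted p = 2.61e-05), with 25 month values of 9.87 to 10.95 and 30 month values of 9.29 to 9.98 that overlap, and a difference of 0.00 under median scaling. The others were CD74 (-0.93 ± 0.24), BOLA-DRA (-0.73 ± 0.15), PSMB8 (-0.58 ± 0.15), IRF1 (-0.56 ± 0.16), TAP1 (-0.53 ± 0.14) and BOLA-DMA (-0.40 ± 0.11), which under median scaling became 0.00, 0.32, 0.24, 0.23, 0.24 and 0.45. PSMB8, PSMB9, TAP1, BOLA-DRA and IRF1 were lower at 30 months in all 8 animals, CD74 and BOLA-DMA in 7 of 8. Median scaling moved the median of all genes up by 0.47 at this step, and less that shift the 7 differences were between -0.47 and -0.02. It also raised the share of higher among all called genes from 51.2 to 71.1%, and B2M, PSMB10 and TAPBP were then called higher. Without GP201, which had the highest PSMB9, TAP1, BOLA-DRA and IRF1 at 25 months, 4 of the 7 calls remained.

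Lists of other genes of these pathways were counted at the same steps. Of all genes 35.6% rose and 31.1% fell from 195 days to birth, and 25.9% rose and 23.8% fell from birth to 3 months. Of 17 tested genes of the class II pathway other than the members, 9 fell and 1 rose from 195 days to birth, among them BOLA-DQA2 (-1.77), BOLA-DRB3 (-1.60) and the class II master regulator CIITA (-1.37). From birth to 3 months 13 of the 17 rose and 1 fell, with CIITA at 2.90, BOLA-DRB3 at 2.59 and BOLA-DMB, the partner chain of BOLA-DMA, at 2.36. Of 11 class I genes 2 rose and 3 fell from 195 days to birth, smaller shares than those of all genes. From birth to 3 months 5 rose, led by the class I heavy chain genes BOLA-NC1 (3.34) and JSP.1 (1.35). Under median scaling 7 of the 17 class II genes rose and 0 fell at that step, and 5 fell and 0 rose at birth. Class I and class II genes of cattle are near-identical copies that differ between animals, so that their probes can share signal and their values are uncertain.

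The proteasome activator split at birth. PSME1 and PSME2, the interferon-induced subunits of PA28, fell by 0.96 and 1.30 from 195 days to birth, while PSME3, which forms the nuclear activator, rose by 1.47. From birth to 3 months PSME1 rose by 0.53 and PSME2 by 0.70, and PSME3 fell by 0.22. Under median scaling 1 of the 3 rose and 1 fell at birth. Of 17 interferon-induced genes outside the members, 4 fell and 0 rose from 195 days to birth (CXCL10 by 1.38, MX1 by 0.92 and IFI35 by 0.71), a smaller share than the 31.1% of all genes that fell, and 13 rose and 0 fell from birth to 3 months (ISG15 by 2.09, MX1 by 2.06 and GBP1 by 1.22). Of 12 genes of interferon signalling, 5 fell and 0 rose from 195 days to birth. From birth to 3 months 6 rose, with IRF9 (1.18) and IRF8 (0.90) in front, where 25.9% of all genes rose.

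Markers of immune cells moved at some of these steps and not at others. Of all genes 35.6% rose and 31.1% fell from 195 days to birth, and 25.9% rose and 23.8% fell from birth to 3 months. From 25 to 30 months 11.6% were higher and 11% lower. Of 8 pan-leukocyte markers 7 rose from birth to 3 months, and their mean level went from 8.23 to 8.83 in newborns to 8.94 to 9.42 in 3 month calves. So did 8 of 12 macrophage and monocyte markers, 7 of 10 T and NK cell markers and 3 of 5 B cell markers, with the 4 neutrophil markers the other way (0 rose, 3 fell). From 195 days to birth 7 of the 12 macrophage and monocyte markers fell and 1 rose, C1QC by 1.10 and MRC1 by 1.07 against a rise of 1.62 in CD163, and their mean went from 9.18 to 9.63 down to 8.93 to 9.37. The pan-leukocyte markers were not lower at birth as a list: 3 of the 8 rose, near the 35.6% of all genes that did, and 1 fell. At that step 6 of 7 endothelial, 6 of 7 fibroblast and 4 of 5 red cell markers fell as well. From 25 to 30 months 7 of 8 pan-leukocyte markers, 4 of 10 T and NK cell markers and 4 of 5 red cell markers were lower, on the same scaling under which 7 of the 10 genes were. Of 13 T and NK cell markers on the array 3 were not well above background in any post-natal channel. Under median scaling 4 of the 8 pan-leukocyte, 2 of the 12 macrophage and 4 of the 10 T and NK cell markers rose from birth to 3 months, and 1 of the 8 pan-leukocyte markers was lower from 25 to 30 months. The part of these cells in the results was not tested.

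**Figure D3:**
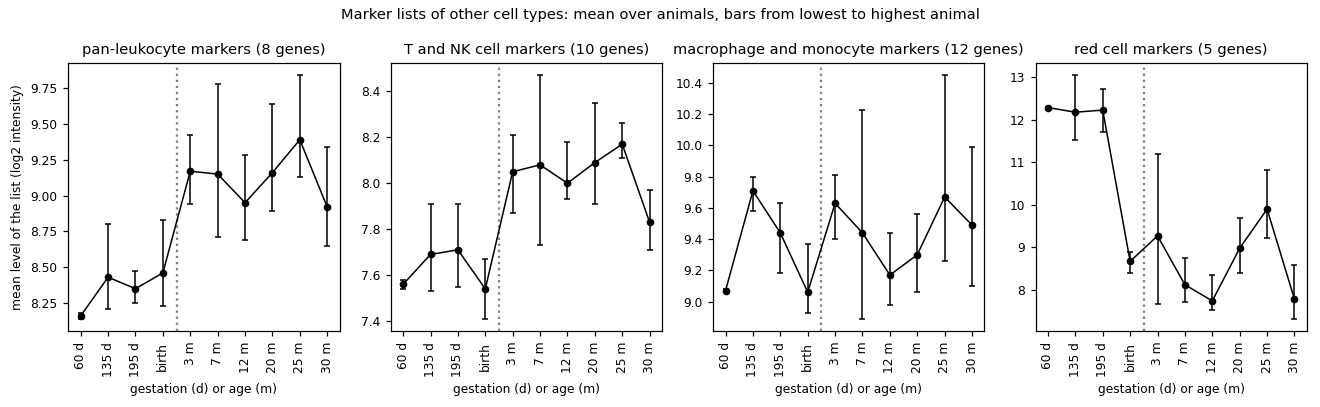
Mean log2 intensity of 4 marker lists by time point, with bars from the lowest to the highest animal and the dotted line where slides change. Pan-leukocyte and T and NK cell markers were higher after birth than at birth, and macrophage markers dipped at birth.

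Piedmontese and Wagyu crosses were compared before birth, at birth and after birth. In none of the 3 comparisons did any of the 10 genes pass limma's test, and 0 of all 15150 genes did either (0% in each), with 491, 1007 and 722 genes at an unadjusted p below 0.05. With the array log ratios in place of channel values, 9 genes passed after birth, 0 of them among the 10. BOLA-DRA at birth came closest: the 3 Piedmontese newborns (9.18, 9.19 and 9.23) all lay below the 3 Wagyu newborns (9.58, 9.83 and 10.23), a difference of -0.68 ± 0.18 with an adjusted p of 0.697. For 9.78% of all genes the newborns of the crosses did not overlap. BOLA-DMA after birth differed by -0.29 ± 0.09 (adjusted p = 0.874), and its crosses overlap. The remaining differences ran from -0.50 for PSMB9 at birth to 0.15 for PSMB8 before birth.

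In the diet experiment, B2M was higher in the weight loss group at time 0, and BOLA-DRA was lower in it at time 1. B2M at time 0 was at 15.78, 16.20, 16.22 and 16.38 in the weight loss group and at 14.82, 15.21, 15.26 and 15.55 in the growth group, which do not overlap (as for 10.1% of all genes). The difference was 0.94 ± 0.15 (adjusted p = 0.00255), the 1 gene of the 10 that passed, where 2.2% of all genes were higher and 2.5% lower in the weight loss group. It was not called when time 0 was fitted on its own (adjusted p = 0.053; 163 of all 15150 genes called) or from the array log ratios (adjusted p = 0.227; 0 of all genes called). At time 1 the growth group had reached 15.93 to 16.05, inside the 15.81 to 16.22 of the weight loss group. B2M had risen in the growth group by 0.76 ± 0.13 (adjusted p = 0.00683; 3.92% of all genes rose and 2.38% fell), by 0.51 to 1.11 in each of its 4 animals, while the 3 weight loss animals changed by -0.41, 0.02 and 0.19. Time and slide cannot be told apart within a diet. The rise in the growth group was not called without RG208 or under median scaling (0.16).

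BOLA-DRA at time 0 was at 12.29, 12.80, 12.92 and 13.98 in the weight loss group and between 11.88 and 12.29 in the growth group. The difference of 0.91 did not pass (adjusted p = 0.176). The highest value, 13.98, was that of RL322, an animal measured at time 0 only. At time 1 BOLA-DRA was at 10.78, 12.18 and 12.30 in the weight loss group, all below the 12.69, 12.82, 13.04 and 13.73 of the growth group. For 30.4% of all genes the diets did not overlap at time 1. The difference at time 1 was -1.25 ± 0.39 (adjusted p = 0.0329; 10.2% of all genes were lower and 10.7% higher in the weight loss group). It was not called without any one of RG157, RG166, RG208, RG604 or RL27, with values from -1.52 to -0.74 when single animals were left out, nor under median scaling (-0.99, adjusted p = 0.0756), and 1 of 10 genes is about the share of all genes that were lower. In the weight loss group BOLA-DRA changed by -2.14 in RL27, -0.62 in RL24 and 0.01 in RL671, and in the growth group it rose by 0.45 to 1.44 in each of 4 animals.

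The change from time 0 to time 1 differed between the diets for B2M (-0.89 ± 0.20, adjusted p = 0.00865) and BOLA-DRA (-2.17 ± 0.48, adjusted p = 0.00904), 2 of the 10 genes, where 6.98% of all genes had a lower and 7.42% a higher change on the weight loss diet. Under median scaling only BOLA-DRA was called (-1.85, adjusted p = 0.0275), and the share of higher among all called genes went from 51.5 to 79.6%. Neither was called without RL27: B2M was then at -0.76 (adjusted p = 0.0753) and BOLA-DRA at -1.68 (adjusted p = 0.0603). Within the weight loss group PSMB10 fell by 0.84 ± 0.24 (adjusted p = 0.0263), with falls of 1.10, 0.80 and 0.23 in its 3 animals, and BOLA-DRA fell by 1.18 ± 0.36 (adjusted p = 0.0327), 2 genes where 7.13% of all genes fell and 11.1% rose. Both calls needed each of RL24, RL27 and RL322, and neither held under median scaling (-0.74 and -1.10, adjusted p = 0.113 and 0.0646). CD74 at time 1 was at 10.21, 10.39 and 10.42 in the weight loss group and at 10.70, 11.35, 11.67 and 11.75 in the growth group, a difference of -0.97 that did not pass (adjusted p = 0.129).

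**Figure D4:**
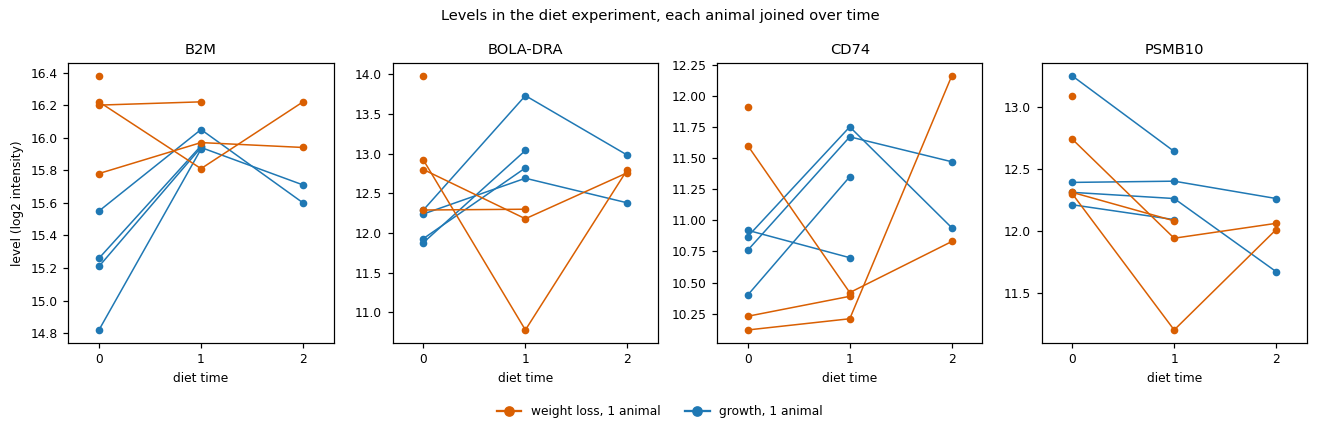
Log2 intensity of B2M, BOLA-DRA, CD74 and PSMB10 at diet times 0, 1 and 2, 1 line per animal, orange for weight loss and blue for growth. BOLA-DRA was lowest in a weight loss animal at time 1 (10.78), and B2M in the growth group climbed from at most 15.55 at time 0 to at least 15.93 at time 1.

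Of the standard subunits PSMB5 and PSMB6 were higher in the weight loss group at time 1, and PSMB7 was not called (0.20, adjusted p = 0.102; 0.48, adjusted p = 0.0289 under median scaling). PSMB5 was between 14.73 and 15.11 in the weight loss group and between 14.19 and 14.43 in the growth group, higher by 0.56 ± 0.10 (adjusted p = 0.00101), and PSMB6 was higher by 0.30 ± 0.10 (adjusted p = 0.040). Of all genes 6.98% had a lower and 7.42% a higher change from time 0 to 1 on the weight loss diet. Of the 17 class II genes outside the members, 5 had a lower change and 0 a higher one, among them BOLA-DRB3 (-1.84) and the class II promoter factor RFX5 (-1.40). So had the macrophage and B cell factor IRF8 (-2.07) and FCGRT, the heavy chain of the neonatal Fc receptor that pairs with B2M (-2.16). Of the 8 pan-leukocyte markers 6 did too, PTPRC by 1.39 and CD48 by 1.52. The mean level of the pan-leukocyte markers was 8.27 to 9.19 in the weight loss group and 9.26 to 9.80 in the growth group at time 1, and 9.28 to 10.43 and 8.98 to 9.15 at time 0, where RL322 had the highest, 10.43. Of 7 muscle fibre markers 4 had a lower and 1 a higher change, ACTA1 by -5.54, and of 7 fibroblast markers 2 had a lower one, COL3A1 by -4.49. Under median scaling 1 of the 8 pan-leukocyte and 1 of the 17 class II genes was called lower. What part these cells had in the values of B2M and BOLA-DRA was not tested.

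At time 2, with 2 animals per diet, 0 of the 10 genes and 0% of all genes differed between the diets by limma (290 genes at an unadjusted p below 0.05). The array log ratios, which counted each animal once per array, called 490 of all genes there and 0 of the 10. From time 1 to 2, 0 of the 10 changed in the weight loss group, where 5.84% of all genes did, and in the growth group 0 of all genes passed (1628 at an unadjusted p below 0.05). The difference of these changes passed for 0 of the 10 and 3.61% of all genes. BOLA-DRA was by then at 12.76 and 12.80 in the weight loss group and at 12.38 and 12.98 in the growth group.

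Over the 26 conditions of the study, 10 time points of each of the crosses and 3 times of each diet, the 45 pairs of the 10 genes had a mean Pearson's r of 0.846, from 0.535 to 0.978, and all were positive. These are descriptions without a test, since conditions share animals, arrays and the fetal to post-natal step. PSMB8 correlated at 0.978 with PSMB9, 0.977 with CD74 and 0.976 with TAP1. PSMB10 had the lowest mean correlation with the others, 0.614. Without GP672 the mean r was 0.85. Within the 12 post-natal conditions the mean r was 0.431, from -0.281 to 0.924, and 37 of 45 pairs were positive, with PSMB9 and TAP1 (0.924) and TAP1 and BOLA-DRA (0.901) at the top and PSMB10 at a mean of -0.0912. Under median scaling the post-natal mean was 0.695. Within the 6 diet conditions the mean was 0.411, with 37 of 45 positive.

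**Figure D5:**
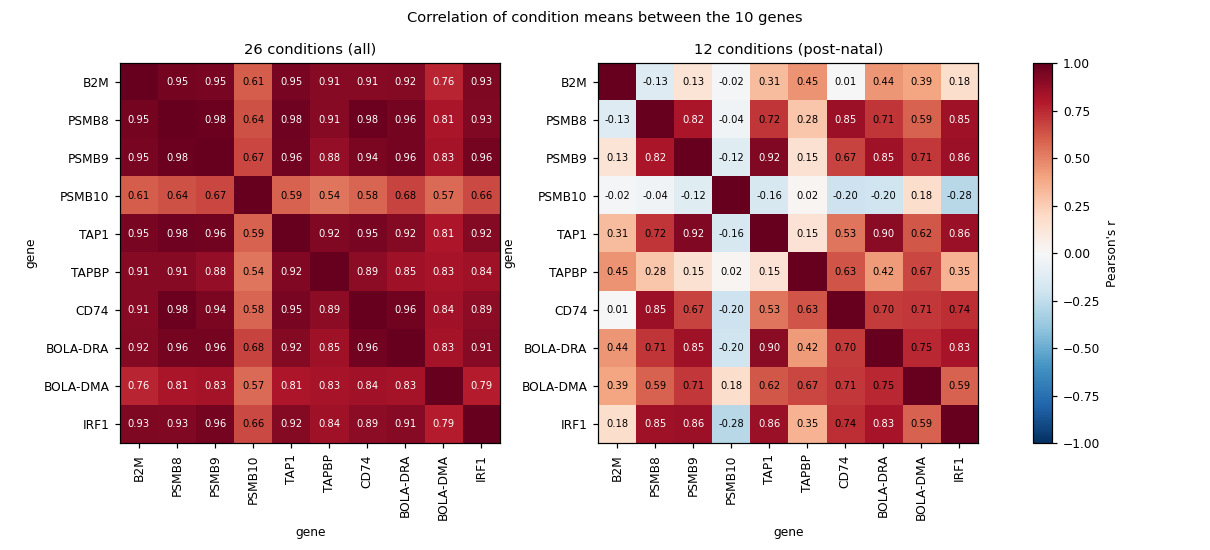
Pearson's r between the condition means of each pair of genes, over all 26 conditions on the left and over the 12 post-natal conditions on the right. All pairs are positive over all conditions (0.535 to 0.978), and 37 of 45 are after birth, with PSMB10 the palest row on the left.

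Among 15140 other genes, ranked by Pearson's r over the 26 conditions with the mean standardised profile of the 10, the first 5 were an unnamed transcript (0.968), the kinase gene VRK3 (0.966), BOLA-DMB (0.965), the ubiquitin ligase gene RNF14 (0.962) and BOLA-DRB3 (0.961). Within the 12 post-natal conditions the same correlation was 0.760 for the unnamed transcript, 0.567 for VRK3, 0.435 for RNF14 and 0.855 for BOLA-DRB3. The leukocyte gene CD48 came 9th (0.952), CIITA 143rd (0.910) and PTPRC, the common leukocyte antigen, 231st (0.899). A high r over all conditions was not limited to immune genes: the muscle fibre marker CKM came 856th (0.852). Of the standard proteasome subunits PSMB6 came 399th (0.884).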

How the data were processed

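RNA of 35 cattle was measured on 48 2-colour arrays (12 slides, 6 scan sessions). The authors deposited, per spot and channel, the mean intensity and background intensity from Agilent Feature Extraction 9.5.1, with flags. The deposited log10 ratios were only compared with those of the scanner files, from which they did not differ, and entered no fit. The processed signal intensities served as an alternative only. The alternative called array log ratios was made here from the normalised channels. Groups, animals and dyes came from the labels. GP041A and GP041B, which may be 1 animal, were counted as 2, and the series description counts time points differently from the labels, which were followed. The members and gene lists were chosen with earlier results of these data known.

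Background was corrected by normexp (offset 50) in limma 3.58.1 (R 4.3.3), which compresses differences of dim probes. Controls and outlier-flagged spots (2 to 797 per array) were left out, arrays were normalised by loess within and Aquantile between arrays, and spots of a probe were averaged. Probes well above background in at least 24 of 96 channels, with a value on every array, were kept: 15737 of 21475, or 15150 genes after averaging probes of a gene. Each gene's dye effect was taken out per experiment, and channels of an animal at a time point were averaged. Normalised levels are thus log2 intensities, made here from the deposited intensities, and their precision is limited by the number of animals and arrays.

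Stages and crosses were fitted in limma with 1 value per animal (two-sided moderated test, Benjamini-Hochberg, 0.05). Time steps, with the cross as covariate, and diets had the animal as random block (consensus correlations 0.302 and 0.195). Animals are the replicates. The scripts were tested on simulated data. Correlations are Pearson's r over condition means. Sequences are those deposited with the array, gene order is RefSeq's, and 13906 probes were matched to the RefSeq table. Genes were named by a rule: all members, PSMB5, PSMB6 and PSMB7, up to 3 called genes per list and direction with the largest change, and the 5 genes most like the members. A few genes were named beyond it after their values were seen, such as CD48, CIITA, PTPRC, CKM and PSMB6 among the correlations. Alternatives were background subtraction, processed signals, centring each channel on its median without loess (median scaling), quantile normalisation, other filters, the brightest probe, slide or animal as block, GP041A and GP041B as 1 animal, separate fits per diet time, array log ratios and leaving out each animal. Slide as a random block had no animal block, so that an animal on several slides counted once per slide. Slide as a fixed term of the time steps and co-expression without GP672 were chosen after seeing the data. A bound for a dim probe is the mean of the bright group over the dim group's mean of, per array, the higher of its own value and the lowest signal well above background.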

Additional observations from a re-analysis of the deposited data

Results flagged for a closer look

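In 120 combinations of a group and a gene, the highest or lowest animal was compared with the rest of its group by the size of the gap, which chance passes in about 1 of 20. Of the 120, 10 passed, all with a high value. At 135 days GP672 stood apart for B2M (14.51, next 13.94), PSMB8 (9.22, next 8.38) and IRF1 (9.29, next 8.67), and it was the highest of 5 fetuses for 8 of the 10 genes, all but CD74 and BOLA-DRA, with the muscle fibre markers at 10.43 and the adipocyte markers at 13.57 that set this sample apart. At 195 days GW067 stood apart for PSMB9 (9.38, next 9.17), PSMB10 (12.35, next 12.17) and BOLA-DRA (12.02, next 11.42). At 7 months GW245 stood apart for PSMB9 (11.48, next 10.50) and IRF1 (11.52, next 10.31), and it was the highest of 8 animals for all 10 genes. Without passing in this way, GW175 was the highest of 6 newborns for 8 of the 10 genes, and RL322 the highest of 8 animals at diet time 0 for 9 of the 10. IRF1 in GP112 at 12 months was at 10.61 (next 9.78), and B2M in RG166 at diet time 1 was at 16.05 (next 15.95).

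The change from diet time 0 to 1 differed between the diets by limma's test of the difference for B2M (-0.89, adjusted p = 0.00865) and BOLA-DRA (-2.17, adjusted p = 0.00904), and neither passed without RL27.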

How the results depend on the processing

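Of 552 values of a called gene under an alternative, 496 kept their direction and their side of the threshold, 48 kept the direction only and 8 reversed, all 8 under median scaling without loess. These were PSMB10 from 7 to 12 months (-0.18), BOLA-DMA from 20 to 25 months (-0.19) and, from 25 to 30 months, PSMB8 (0.24), TAP1 (0.24), CD74 (0.00), BOLA-DRA (0.32), BOLA-DMA (0.45) and IRF1 (0.23). Median scaling shifted the median gene by 0.21 from prenatal to birth, 0.20 from 195 days to birth, 0.12 from prenatal to post-natal, -0.14 from 7 to 12 months, -0.28 from 20 to 25 months, 0.47 from 25 to 30 months and 0.14 for the difference of the diet changes from time 0 to 1, and it called 0 of the 10 genes from 60 to 135 days, 135 to 195 days, 7 to 12 months, 20 to 25 months, between diets at time 1 and from time 0 to 1 in either diet, 5 from birth to 3 months, 3 from 25 to 30 months and 1 for the difference of the diet changes. The share of higher among all called genes moved from 52.1 to 34% from birth to 3 months, from 49.5 to 34.5% from 60 to 135 days, from 55.5 to 31.5% from 7 to 12 months, from 50.3 to 3.86% from 20 to 25 months, from 43.1 to 68.1% from 3 to 7 months, and, in the diets, from 46.8 to 34.9% at time 0, from 51.4 to 75.5% at time 1, from 60.9 to 71% for weight loss and from 62.2 to 21.9% for growth from time 0 to 1. Of all 15150 genes median scaling called 715 from 60 to 135 days (2497 on the main scaling), 699 (3915) from 135 to 195 days and 2474 (7534) from birth to 3 months. From 7 to 12, 20 to 25 and 25 to 30 months it called 108 (2604), 1892 (2077) and 11044 (3417). In the diets it called 3063 (3168) at time 1, 1627 (2764) for weight loss and 366 (955) for growth from time 0 to 1, and 1576 (2181) for the difference of the changes. From 135 to 195 days the count of the 10 genes was 7 with processed signals, 8 with slide as a random block, 7 with slide as a fixed term, 3 with GP041A and GP041B as 1 animal and 2 with probes above background in all 96 channels, a filter that leaves out PSMB8, TAP1 and CD74. That filter gave 1 from 195 days to birth, 2 from 20 to 25 months and 4 from 25 to 30 months. Slide as a random block, with no animal block, gave 5 from 7 to 12 months (1 higher, 4 lower) and 0 from 20 to 25 months. As a fixed term slide gave 2 from 7 to 12 months (1 higher, 1 lower). Array log ratios called 0 at diet time 0, where they called 0 of all 15150 genes, 5 at time 1 (4098 of all genes) and 0 at time 2 (490 of all genes). In the diets they had no animal block, so that an animal on several arrays of a time, such as RL24 at time 1, counted once per array. Separate fits per diet time called 0 at time 0 (163 of all genes). Animal as a fixed block called 1 from time 0 to 1 of the weight loss diet (2505 of all genes). The cause was not tested except where the filter removes genes. With each animal left out in turn, the counts ran from 2 to 6 from 60 to 135 days (2 without GW911, 3 without GP663, each leaving 1 animal assumed to vary like the others), 3 to 6 from 135 to 195 days (6 without GP672), 2 to 4 from 195 days to birth (4 without GW175), 9 to 10 from birth to 3 months, 1 to 3 from 7 to 12 months, 0 to 3 from 20 to 25 months and 4 to 7 from 25 to 30 months (4 without GP201). They ran from 0 to 1 between diets at time 1, 0 to 2 from time 0 to 1 on weight loss, 0 to 1 on growth, and 0 to 2 for the difference of the changes (0 without RL27). The mean r of the pairs was 0.431 after birth, 0.411 in the diet conditions and 0.847 under median scaling over all conditions. Samples were paired by animal where the labels repeat one, as a random block: as a fixed block the animal kept the count of members at every post-natal step, 7 from 25 to 30 months among them. By the replicate numbers, no paired analysis was possible because they were given in accession order and pair no samples. At 60 days low signal limits TAP1, PSMB8 and CD74.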
